A study of Mus musculus with 6 samples.

Results

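Conventional CD4 T cells were gathered from 4 single-cell libraries of mouse pancreatic tumours, where 470 of 74546 cells met the rule. The members were chosen by measured UMIs. A barcode counted as a cell from 500 UMIs upward if it had over 200 genes and its mitochondrial UMIs were under 10%, a UMI being a tag that counts each captured transcript once. A member had at least 2 UMIs of the CD3 genes Cd3d, Cd3e and Cd3g together and at least 1 UMI of Cd4, with 0 UMIs of Cd8a, Cd8b1 and Foxp3. It also held under 0.2% of its UMIs in the C1q genes of macrophages, under 1% in the neutrophil genes S100a8 and S100a9, and at most 1 UMI of the keratins Krt8 and Krt18. OE-Vector 1 gave 189 members, and OE-MLKL 1, 2 and 3 gave 58, 120 and 103. The members of OE-Vector 1 came from 1 tumour library, so a difference between the groups cannot be told apart from a difference between tumours.

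The tumours were grown in the pancreas of C57BL/6 mice that were 6 to 8 weeks old at injection and were harvested 4 weeks later. The injected KPC cells are a cancer line from a mouse with spontaneous pancreatic tumours, whose mutations are driven by Pdx1-Cre, and both groups shared this background. The line carried an empty vector in OE-Vector and an MLKL overexpression construct in OE-MLKL, where MLKL is the pseudokinase that opens the membrane in necroptosis. The construct was in the injected cancer cells only, and the T cells were those of the host. The labels give 6 samples, 3 in each group, and counts were used from OE-Vector 1 and from OE-MLKL 1, 2 and 3.

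CD4 T cells recognise peptides on MHC class II and act mainly through cytokines and surface ligands. Foxp3-expressing regulatory T cells restrain immune responses, whereas conventional CD4 cells differentiate into helper programmes. These are known by Tbx21 and Ifng (Th1), Gata3, Il4, Il5 and Il13 (Th2), Il17a (Th17) and Bcl6, Cxcr5 and Il21 (follicular helper). In pancreatic cancer CD4 cells are known both for helping CD8 T cells through CD40 ligand and for regulatory functions.

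Total depth was 150591289 to 169978362 UMIs per library, and the members had a median of 3924 UMIs in OE-Vector 1 and 2189.5, 2505 and 2841 UMIs across OE-MLKL 1, 2 and 3. The members of OE-Vector 1 were thus the most deeply read. Mlkl itself, which no rule of selection used, gave 4 UMIs in the members of OE-Vector 1 and 2, 2 and 1 in those of the OE-MLKL libraries, that is 4.04, 12.03, 5.27 and 2.80 CPM (UMIs per 1000000 UMIs of the summed cells). Its level in T cells cannot check the construct of the injected cells, and the groups are named here as the libraries are labelled. Each pair of libraries shared 73 to 134 cell barcodes, and no member barcode was a member in another library.

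The members were also described by T cell genes that the rule did not use. These genes do not tell CD4 from CD8 T cells, as CD8 cells held 388 to 570 CPM of Trac. The cells without a CD3 UMI, given for comparison, were set apart by genes of the rule. Trac, the constant region of the T cell receptor alpha chain, stood at 559 CPM in the members of OE-Vector 1 and at 644, 656 and 695 CPM in those of OE-MLKL 1, 2 and 3. Cells without a CD3 UMI held 0.776 to 2.16 CPM of Trac. The T cell kinase Lck was at 301, 271, 427 and 378 CPM in the members, in the same order of libraries. The T cell transcription factor Bcl11b was at 289, 150, 142 and 244 CPM, against at most 0.836 CPM in cells without a CD3 UMI. Of the selection genes, Cd3e was at 565, 553, 595 and 998 CPM and Cd4 at 432, 656, 630 and 790 CPM, genes that the rule used.

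Marker lists of other cell types lay below their level in free RNA, read from barcodes with at most 100 UMIs, with a pair of exceptions. The summed stromal and endothelial list (14 genes) was at 865 CPM in the members of OE-Vector 1 and 621 CPM in the free RNA of that library, against 42.1 to 151 CPM in the members of the OE-MLKL libraries. Of 728 UMIs of the fibroblast genes Col1a1, Col1a2, Col3a1 and Dcn in the members of OE-Vector 1, 709 were in 3 cells. The list of gamma delta and NKT genes was at 72.9 to 102 CPM in members and 26.4 to 59.1 CPM in free RNA. Macrophage and monocyte genes (16) summed to 1913 to 3249 CPM in members and 10192 to 14098 CPM in free RNA. The B cell gene Pax5 and the NK receptor Ncr1 were at 0 in the members of each library.

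The threshold set some cells close to its edge. Exactly 2 CD3 UMIs were found in 5 members of OE-Vector 1 and in 4, 5 and 4 of those of the OE-MLKL libraries. In the same order 4, 6, 5 and 4 cells met the rest of the rule with 1 CD3 UMI. Exactly 1 Cd4 UMI was found in 82, 26, 52 and 35 members. A further 184, 95, 139 and 141 T cells had no UMI of Cd4, Cd8a, Cd8b1 or Foxp3 and were not members, since a transcript that was not captured cannot be told apart from one that was not made. In the same way a regulatory cell whose Foxp3 transcript was missed counts as a member.

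Conventional CD4 T cells made up a larger share of the cells in OE-Vector 1 than in any OE-MLKL library. The share was 1.23% in OE-Vector 1 (exact 95% binomial interval 1.06 to 1.42%), and 0.314% (0.239 to 0.406%), 0.520% (0.432 to 0.622%) and 0.584% (0.477 to 0.708%) across OE-MLKL 1, 2 and 3. The intervals of OE-Vector 1 and of the OE-MLKL libraries did not overlap, but they cover counting error only. The mean difference was -0.756 percentage points with an exact two-sided permutation p of 0.25, the smallest that 1 library against 3 allows. With each cell thinned to 1000 UMIs, and shallower cells left out, the shares were 0.552, 0.215, 0.344 and 0.306%. The median depth of the members moved with the group, and its part in the remaining difference was not tested.

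Among T cells, defined as cells that passed the CD3 gate and the exclusions, the groups overlapped. Members were 19.0% of 996 T cells in OE-Vector 1, and 10.7% of 541, 19.8% of 606 and 12.9% of 797 across OE-MLKL 1, 2 and 3. OE-MLKL 2 was the highest and OE-MLKL 1 the lowest. The mean difference of -4.49 percentage points had an exact two-sided permutation p of 0.75, and thinned to 1000 UMIs it turned to 1.19 points. Cells with a Foxp3 UMI were 15.3% of Foxp3-positive and conventional CD4 cells together in OE-Vector 1, and 10.8, 16.7 and 21.4% across OE-MLKL 1, 2 and 3, from 34, 7, 24 and 28 Foxp3-positive cells.

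**Figure D1:**
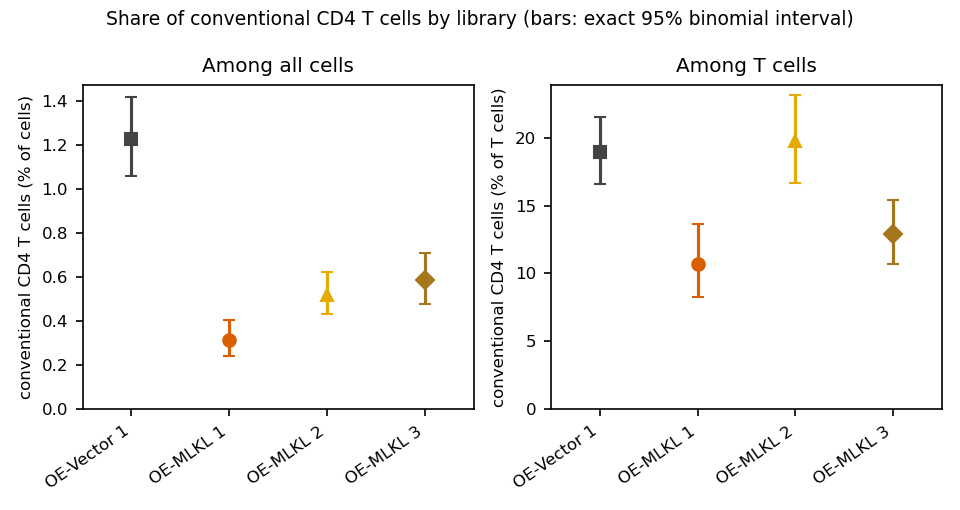
Share of conventional CD4 T cells among cells and among T cells (%, points), in each library, with exact 95% binomial intervals as bars. Among cells OE-Vector 1 lies at 1.23% and the OE-MLKL libraries at 0.314 to 0.584%, whereas among T cells OE-MLKL 2 (19.8%) lies above OE-Vector 1 (19.0%).

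Genes known as Th1, Th2 and cytotoxic markers were found in members of each library, and in CD8 cells as well. Ifng, the Th1 cytokine interferon gamma, had a UMI in 32.8% of the members of OE-Vector 1 and in 29.3, 44.2 and 33.0% of those of OE-MLKL 1, 2 and 3. In C1q-expressing macrophages, which should lack the gene, the share was at most 0.904% at median depths of 8696, 4028, 4852.5 and 7021.5 UMIs in the same order. CD8 cells had an Ifng UMI in 26.9 to 36.0%, at median depths of 3768 to 4435.5 UMIs, below which the members of the OE-MLKL libraries lay. Thinned to 1000 UMIs the Ifng shares were 15.4, 19.0, 25.8 and 21.6% in members and 12.9, 10.2, 11.4 and 13.3% in CD8 cells, and the members were higher in each of the 4 libraries. The Th1 regulator Tbx21 had a UMI in 17.5, 6.90, 12.5 and 14.6% of members, against at most 0.588% of macrophages and 17.7 to 22.3% of CD8 cells, and thinned the members (3.45 to 5.88%) and CD8 cells (4.85 to 5.82%) overlapped. Nkg7, a granule protein gene shared with cytotoxic cells, was found in 67.7, 62.1, 85.8 and 70.9% of members and in 95.9 to 96.9% of CD8 cells, and thinned in 41.4 to 66.7% and 57.3 to 75.7%. Among the members the shares of Ifng and Nkg7 were highest in OE-MLKL 2.

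Gata3, the Th2 regulator, had a UMI in 40.7% of the members of OE-Vector 1 and in 20.7, 15 and 29.1% of those of OE-MLKL 1, 2 and 3. In CD8 cells the share was 17.4, 19.1, 14.97 and 20.5%, so that the members of OE-MLKL 1 and 2 lay near the CD8 level. Thinned to 1000 UMIs the Gata3 shares were 16.5, 8.62, 7.5 and 10.8% in members and 2.22 to 5.53% in CD8 cells. Il17a, the Th17 cytokine, had 24 UMIs in OE-Vector 1, all in 1 cell. Bcl6, a follicular helper regulator that macrophages also express, was found in 9.52, 3.45, 3.33 and 7.77% of members and in 8.399 to 27.6% of macrophages. In CD8 cells the Bcl6 share was 1.36 to 4.29%.

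Markers of activation and tissue residence were frequent. The costimulatory receptor Icos had a UMI in 82.0, 48.3, 57.5 and 71.8% of members and in 27.6 to 45.6% of CD8 cells. Thinned to 1000 UMIs the members' Icos shares were 38.8, 29.3, 30.8 and 44.1%, with OE-MLKL 3 in place of OE-Vector 1 as the highest, and those of CD8 cells were at most 19.1%. The residence-associated chemokine receptor Cxcr6 had one in 78.8, 29.3, 44.2 and 49.5%, and thinned to 1000 UMIs in 41.0, 20.7, 20.8 and 26.5%. The Cxcr6 share of CD8 cells was 63.0, 56.4, 36.7 and 59.1%, and thinned 25, 16.1, 12.8 and 16.8%, so that at equal depth the members were higher in each library. The inhibitory receptor Pdcd1 (PD-1) had a UMI in 32.8% of the members of OE-Vector 1 and in 55.2, 53.3 and 50.5% of those of OE-MLKL 1, 2 and 3, and thinned in 9.04, 37.9, 22.5 and 23.5%. Of CD8 cells 40.3, 72.9, 54.1 and 49.9% had a Pdcd1 UMI, and thinned 12.3, 34.6, 19.0 and 17.2%. OE-Vector 1, whose members had the highest median depth, had the lowest Pdcd1 share.

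**Figure D2:**
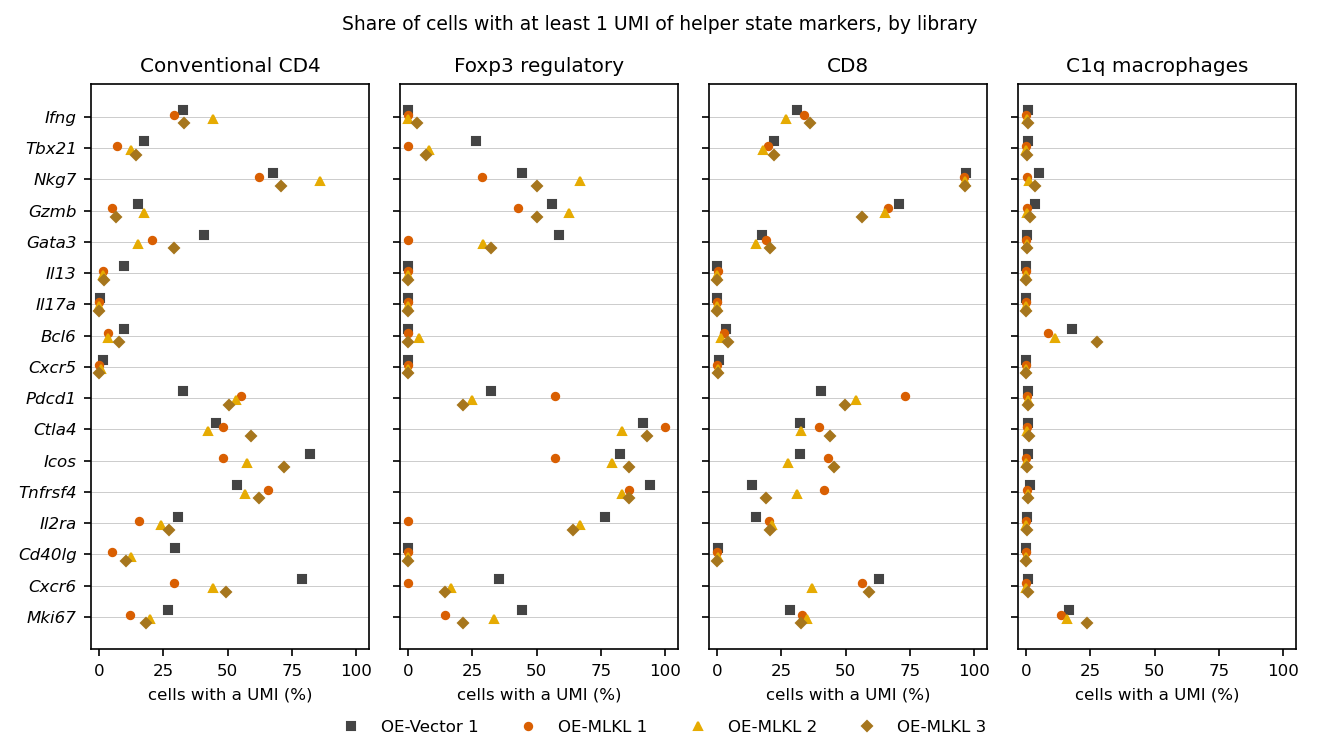
Share of cells, not thinned to equal depth, with at least 1 UMI of each helper marker (%, horizontal axis) in the conventional CD4 T cells and in the comparison classes, 1 symbol per library. Ifng lies at 29.3 to 44.2% in the members and 26.9 to 36.0% in CD8 cells, and Nkg7 at 62.1 to 85.8% and 95.9 to 96.9%, while Il17a was found in 1 member.

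The first comparison across genes set the members against Foxp3-positive regulatory T cells of the same libraries, which differed from them in the rule only by a Foxp3 UMI. UMIs were summed per library and cell type, and edgeR's quasi-likelihood test was run with the library as a block, and a gene was called at a Benjamini-Hochberg adjusted p of at most 0.05. Of 3546 genes tested 204, which is 5.75%, were called. The members were higher in 126 genes, which is 3.55%, and lower in 78 genes, which is 2.2%. The list of regulatory T cell genes had 14 tested members, of which 11 were lower and 1, Nrp1, was higher, with a median log2 difference of -1.74 against 0.02 over the genes tested. The list holds genes known to go with Foxp3, and the cells were split on Foxp3.

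The transcription factor Ikzf2 (Helios), a marker of thymus-derived regulatory cells, was at 183, 193, 124 and 353 CPM in members and at 1139, 1691, 1544 and 1792 CPM in regulatory cells. The levels did not overlap, and the log2 difference was -2.78 ± 0.18 (SE, 4 pairs of sums, edgeR adjusted p 1.1e-11). The inhibitory receptor Ctla4 was at 228, 277, 279 and 370 CPM in members and at 631, 1321, 1211 and 1478 CPM in regulatory cells, a difference of -1.82 ± 0.17. Il2ra, the high-affinity interleukin-2 receptor chain, was lower in members by edgeR (-1.86 ± 0.24), although the 7 regulatory cells of OE-MLKL 1 had none of its UMIs. Il10, an inhibitory cytokine, differed by -2.72 ± 0.31, and Itgb8, an integrin that activates TGF-beta, by -3.54 ± 0.53. The other large falls were Rapsn, Gzmb, Neb, Bmyc, Snx9, Ikzf4 and Ighm, at -3.40 to -2.07.

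Ifng was nearly absent from the regulatory cells. It was at 509, 108, 321 and 314 CPM in members, from 756 UMIs in all, and gave 1 UMI in the regulatory cells, a ratio of 175 with an exact 95% counting interval of 31.3 to 6925. The chemokine gene Ccl1 had 1185 UMIs in members and 1 in regulatory cells, a ratio of 274 (49.2 to 10850). Klrd1, the CD94 chain of an NK-type receptor, had 248 UMIs in members and 0 in regulatory cells, and was at least 19.2-fold higher with a floor of 3 UMIs over the regulatory group. Nrgn, which encodes the calmodulin-binding protein neurogranin, had 726 and 3 UMIs, a ratio of 56.0 (19.1 to 272). Serpinb6b, Tbc1d4, Nmrk1, Xcl1, Tnfsf8 and Gldc completed the 10 largest rises.

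Genes that respond at once to the T cell receptor, among them Bhlhe40, Egr1, Nr4a2 and Nfatc1, were higher in members for 7 of 11 tested, with a median log2 difference of 0.92. DESeq2 called 2 of the 11, and edgeR called 2 of 5 tested when thinned and 2 of 7 without other-lineage or very deep cells. Cells left out here had a UMI of Cd79a, Ms4a1, Ncr1, Trdc, Lyz2, Retnlg, Flt3, Col1a1 or Pecam1. Also left out were cells over 3 times the median depth of the members of their library. A single such UMI does not show another lineage. Members kept were 70, 37, 67 and 28 in OE-Vector 1 and OE-MLKL 1, 2 and 3, so calls can also be lost through fewer cells. Bhlhe40 was called in 16 of 16 alternatives, Nr4a2 in 11 of 16, Egr1 in 10 of 16 and Nfatc1 in 7 of 15. Of 8 Th1 genes tested 5 were higher, namely Ccl5, Ifng, Il18r1, Il18rap and Runx3. The costimulatory list held genes of the TNF receptor family and its ligands, and also Icos and Cd28, which are not of that family. Of its 9 genes tested, the ligands Tnfsf8 and Tnfsf11 were higher and 5 were lower. The lower genes included Tnfrsf4 (OX40) at -1.15 ± 0.19 and Tnfrsf9 (4-1BB) at -1.80 ± 0.22. DESeq2 called 1 of the 9 higher and 3 lower, and thinned edgeR called 0 of 5 tested higher and 3 lower. Pdcd1 was higher in members by 1.28 ± 0.28 (edgeR adjusted p 0.0036). DESeq2 called it as well, but it was not called without other-lineage or very deep cells. The 93 regulatory cells limit this comparison, and with every cell thinned to 1000 UMIs 54 genes of 683 tested were called, 18 higher and 36 lower. Without other-lineage or very deep cells the split was 23 higher and 26 lower. Without OE-MLKL 2 edgeR called 83 genes and without OE-MLKL 3 110.

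The second comparison set the members against CD8 T cells, which passed the same gate with a UMI of Cd8a or Cd8b1 and none of Cd4. Of 8907 genes tested 656, which is 7.36%, were called. Members were higher in 369 genes, which is 4.14%, and lower in 287 genes, which is 3.22%. Under scaling by library size alone the split was 476 higher and 235 lower. The balance turned to 386 higher and 462 lower without OE-Vector 1, and to 438 higher and 582 lower with no filter on low counts. Without OE-MLKL 1, 2 or 3 edgeR called 422, 348 or 241 genes. Cd40lg and Il21 were among the genes called higher, and Prf1, Gzmb and Eomes among those called lower.

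Cd40lg, the CD40 ligand through which helper cells activate antigen-presenting cells, was at 76.8, 18.04, 44.8 and 36.4 CPM in members and at 1.04, 0, 0.701 and 0 CPM in CD8 cells. The groups did not overlap, and the log2 difference was 6.38 ± 0.47 (4 pairs of sums, edgeR adjusted p 1.4e-07). Il21, the follicular helper cytokine, was at 20.2, 42.1, 47.4 and 36.4 CPM in members and at 0 to 2.80 CPM in CD8 cells, a difference of 5.58 ± 0.58. Maf, a transcription factor of Il21 and Il10 producing cells, was at 378, 337, 477 and 771 CPM in members and at 23.5 to 54.4 CPM in CD8 cells. Maf differed by 3.80 ± 0.14 and was called in 16 of 16 alternative analyses. Lgals7, which encodes galectin-7, differed by 5.16 ± 0.35, with 390 CPM in OE-Vector 1 and 96.2 to 165 CPM in the members of the OE-MLKL libraries.

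Of the costimulatory list, which holds Icos and Cd28 beside the TNF receptor family and its ligands, 7 of 11 tested were higher in members. The list median was 1.24 against 0.0 over the genes tested. The higher genes were Cd40lg, Tnfsf8, Tnfsf11, Tnfrsf4, Tnfrsf18, Icos and Cd28, and Tnfrsf9 was lower at -0.77 ± 0.14. Of 9 follicular helper genes 6 were higher, among them Il21, Slamf6 (1.43 ± 0.26) and Tox2, and the median was 1.56. Thinned, 1 of 4 follicular helper genes tested was called, and without other-lineage or very deep cells 1 of 5. The immediate response list had 11 of 16 higher and 2 lower, Myc and Nr4a2. The list of dissociation and heat shock genes moved with it, with 7 of 14 higher (Dusp1, Fos, Fosb, Ier2, Junb, Jund and Zfp36), 1 lower (Hspe1) and a median of 0.51, and its part in the result was not tested. The regulatory list had 8 of 13 higher, including Izumo1r at 3.01 ± 0.26, and Ikzf2 and Tnfrsf9 lower.

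The cytotoxic list had 10 of 13 lower and 0 higher, with a median of -2.45. Prf1, which encodes perforin, was at 4.04, 42.1, 39.5 and 16.8 CPM in members and at 180, 239, 210 and 302 CPM in CD8 cells, a difference of -3.64 ± 0.30. Gzmb, which encodes granzyme B, differed by -3.14 ± 0.20, and Eomes, a CD8 and NK transcription factor, had 1 UMI in members and 250 in CD8 cells. Nkg7 was not called (-0.46 ± 0.17, edgeR adjusted p 0.12), and neither was Pdcd1 (-0.06 ± 0.16, 0.89). Of 18 cell cycle genes 4 were lower, namely Mcm5, Pclaf, Top2a and Tubb5. Thinned, edgeR called 0 of 13 tested, and without other-lineage or very deep cells 0 of 18, where the median went from -0.52 to -0.15. The lncRNA Gm44175 had 0 UMIs in members and 392 in CD8 cells, so that it was at least 28.3-fold lower, and Trdc, Tcrg-C1 and Tcrg-C2, which mark gamma delta cells, were lower as well.

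**Figure D3:**
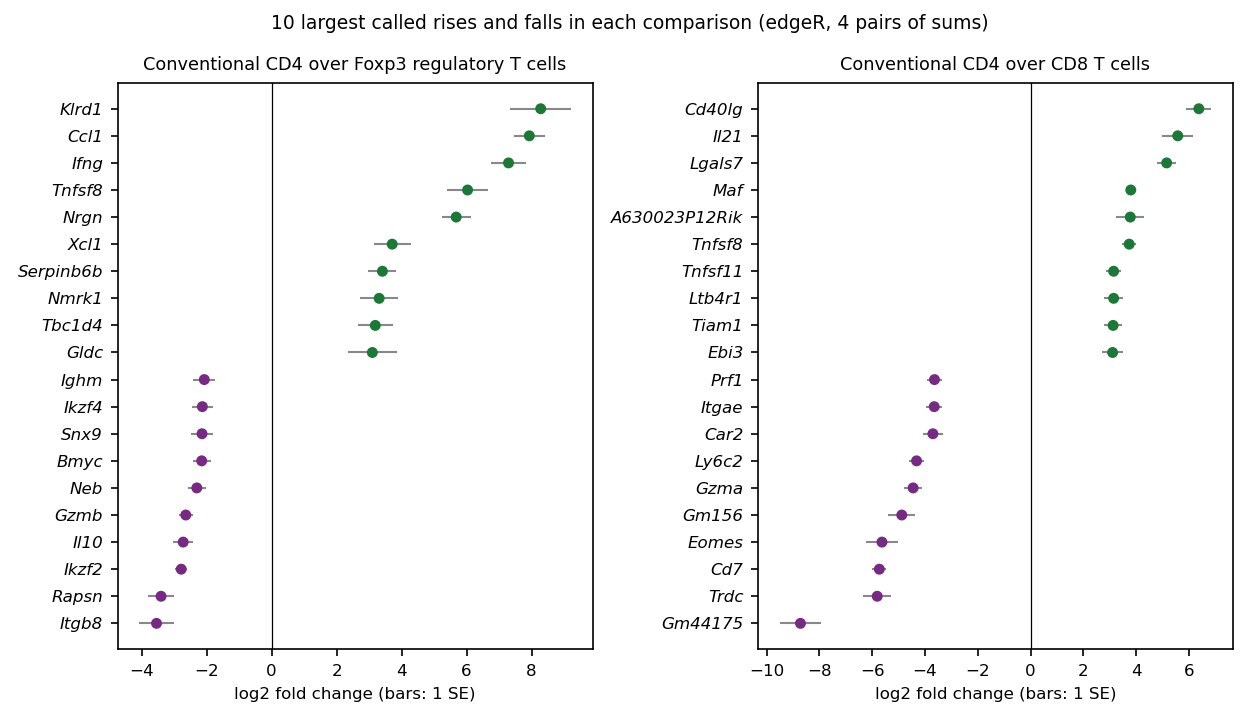
Log2 difference of the members from regulatory T cells and from CD8 T cells (horizontal axis, bars 1 SE, 4 pairs of library sums) for the 10 largest called rises and falls of each. Ccl1 and Ifng lead the rises over regulatory cells with Klrd1, and Cd40lg leads over CD8 cells at 6.38. The fitted values of Klrd1 and Gm44175 are no bounds, because 1 side had 0 UMIs.

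The comparison of the study itself, OE-MLKL against OE-Vector, was made on the members' sums of 1 library against 3. It left 2 residual degrees of freedom, which stem from the OE-MLKL side alone, and the spread of OE-Vector was taken to be that of the other group. In the members of the libraries labelled OE-MLKL 71 of 6840 genes tested were called, which is 1.04%. Of these 26 were higher, which is 0.38%, and 45 were lower, which is 0.658%. The median log2 change over the genes tested was 0.04, and 0.15 under scaling by library size alone. DESeq2 called 5 genes, with 173 at an unadjusted p under 0.05, and of the 10 named rises and of the 10 named falls DESeq2 called 2 each. edgeR called 36 genes without OE-MLKL 1, 33 without OE-MLKL 2 and 223 without OE-MLKL 3. With cells that held other-lineage UMIs or were of very high depth left out it called 14. That left 70, 37, 67 and 28 members of OE-Vector 1 and OE-MLKL 1, 2 and 3.

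The rises included Nrgn, Il10, Gldc and a granzyme. Nrgn was at 87.9 CPM in OE-Vector 1 and at 710, 867 and 538 CPM in OE-MLKL 1, 2 and 3. The log2 change was 2.92 ± 0.62 (edgeR adjusted p 0.00055), called in 13 of 14 alternatives and lost without OE-MLKL 2 (edgeR adjusted p 0.087). Il10 was at 8.09, 30.1, 68.5 and 72.9 CPM, a change of 2.75 ± 0.63 (edgeR adjusted p 0.0026), called in 8 of 13 alternatives and lost, among others, without OE-MLKL 2 (edgeR adjusted p 0.14). Gldc, the glycine decarboxylase of the mitochondria, rose by 2.78 ± 0.59 from 12.1 CPM to 144, 84.3 and 56.1 CPM. It was called in 10 of 13 alternatives, and lost with DESeq2, with a mean of at least 20 UMIs and without other-lineage or very deep cells. In CD8 cells Nrgn was at 154 CPM in OE-Vector 1 and at 638, 558 and 361 CPM in OE-MLKL 1, 2 and 3. Gldc was there at 26.6 CPM in OE-Vector 1 and at 49.2 to 191 CPM in the OE-MLKL libraries. The change in members was called larger than that in CD8 cells for Nrgn (by 1.18 ± 0.26, in 9 of 14 alternatives). For Gldc it was not called different.

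Over the 11 cytotoxic genes tested the median log2 change was -0.47. Gzma and the granzyme gene Gzmc were called lower, and none of the list was called higher. Gzmf, which encodes a granzyme, had 1 UMI in OE-Vector 1 and 67 in the OE-MLKL libraries, a ratio of 73.4 (12.7 to 2944). It was called in 8 of 13 alternatives, and the call was lost with DESeq2, with limma-voom, thinned, without other-lineage or very deep cells and without OE-MLKL 2 (edgeR adjusted p 0.1). Qrfp, Slc16a11, Spock2 and Serpinb9b also rose, and Serpinb9b did so on OE-MLKL 1 and 2 (211 and 94.9 CPM), as OE-MLKL 3 (8.41 CPM) was at the level of OE-Vector 1 (8.09 CPM). Qrfp was called in 10 of 12 alternatives, Slc16a11 in 7 of 12, Spock2 in 7 of 13 and Serpinb9b in 9 of 14, and DESeq2 and limma-voom called none of the 4. In CD8 cells Serpinb9b was at 13.1 CPM in OE-Vector 1 and at 181, 79.2 and 23.6 CPM across OE-MLKL 1, 2 and 3. Slc16a11 was there at 8.29 CPM against 66.9, 44.1 and 27.2 CPM, and Spock2 at 4.84 CPM against 36.0, 23.8 and 10.8 CPM. Qrfp was at 10.0 CPM in the CD8 cells of OE-Vector 1 and at least 42.8 CPM in those of each OE-MLKL library. Gzmf was there at 199 CPM against 1705, 996 and 23.2 CPM, so that OE-MLKL 3 lay below OE-Vector 1. For none of Serpinb9b, Slc16a11, Spock2, Qrfp and Gzmf was the change called different from that in CD8 cells. Chil3 and Retnlg, genes of macrophages and neutrophils, rose by 3.95 ± 0.66 and 2.87 ± 0.63. DESeq2 called Chil3 and not Retnlg, and Chil3 was not called without other-lineage or very deep cells. Retnlg could not be tested there, since cells with a Retnlg UMI were left out. In CD8 cells, in the same order of libraries, Chil3 was at 6.91, 77.8, 144 and 88.8 CPM and Retnlg at 8.29, 35.5, 28.0 and 53.6 CPM. Their level in free RNA moved in the same direction. For Chil3 it was 116 CPM in OE-Vector 1 and 447 to 821 CPM in the OE-MLKL libraries, for Retnlg 157 CPM and 298 to 633 CPM, and its part in the result was not tested.

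The falls were led by genes held in 1 cell. Of the 10 largest, 8 had over 90% of their UMIs of OE-Vector 1 in a single member, and it was the same member for Fstl1, Cemip, Sfrp1, Gpx3, Actg2, Col1a2, Tagln and Col1a1. That cell had 20197 UMIs, 28 of CD3 genes and 6 of Cd4. These are mostly genes of fibroblasts and smooth muscle. Fstl1 and Cemip had 0 UMIs in the OE-MLKL libraries and were at least 17.0-fold and 10.9-fold lower, with a floor of 3 UMIs over the group. An alternative chosen after the data were seen left out cells with at least 3 stromal UMIs, counted over Col1a1, Col1a2, Col3a1 and Dcn. It called 41 genes, 22 higher and 19 lower. Of the 10 falls only Gzma and Hspa1a could still be tested, and both were called.

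Gzma, which encodes granzyme A and lies on chromosome 13 from 113093825 to 113100981 (GRCm38, minus strand), was at 639 CPM in OE-Vector 1 and at 18.04, 42.1 and 8.41 CPM in OE-MLKL 1, 2 and 3. The fall was -4.81 ± 0.49 (edgeR adjusted p 8.7e-19), and it was called in 14 of 14 alternatives. In OE-Vector 1 17 of 189 members had a UMI, and 1 cell held 49.5% of the 632 UMIs. In the CD8 cells of the same libraries, in the same order, Gzma was at 6422, 465, 1072 and 2076 CPM.

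The Th2 cytokine Il13 was at 100 CPM in OE-Vector 1 and at 18.04, 5.27 and 14.02 CPM in the OE-MLKL libraries, a change of -3.24 ± 0.54 (edgeR adjusted p 1e-06). It came from 18 members of OE-Vector 1, and 52.5% of its UMIs were in 1 cell. Csf2, the cytokine GM-CSF, changed by -2.03 ± 0.50 and was called in 5 of 13 alternatives, and Il13 in 10 of 12. Of the 6 Th2 genes tested 1 was called, and the median was -0.91. The filter on low counts kept a gene that was high enough in 1 library, and Il13 passed it through OE-Vector 1. Ccr8, of the same list, was at 13.1 CPM against 24.1, 15.8 and 19.6 CPM and was not tested. The median is thus no measure of the whole list.

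Ccr2, a chemokine receptor of cells recruited to inflamed tissue, was at 180 CPM against 42.1, 65.9 and 61.7 CPM, and fell by 1.73 on the log2 scale (edgeR adjusted p 0.02). Itgb7, an integrin chain of mucosal homing, was at 210 CPM against 18.04, 60.6 and 64.5 CPM, with a change of -2.14 ± 0.46. Ccr2 was called in 5 of 14 alternatives, with DESeq2, limma-voom and scaling by library size among those that lost the call, and Itgb7 in 10 of 14. Both were spread over 68 and 108 members of OE-Vector 1. In CD8 cells, in the same order of libraries, Ccr2 was at 56.0, 8.88, 26.6 and 35.6 CPM and Itgb7 at 118, 13.6, 51.1 and 56.8 CPM. The interferon-induced genes Bst2 (-2.04 ± 0.46) and Isg15 (-1.85 ± 0.49) fell, and 2 of 18 interferon genes tested were called, with a median of -0.83. Without other-lineage or very deep cells the median was -0.13 and edgeR called 0 of 11, and thinned it called 0 of 10 with a median of -0.83. DESeq2 called 0 of 18 with a median of -0.92. Bst2 was called in 9 of 14 alternatives and Isg15 in 6 of 12. In CD8 cells Bst2 was at 91.9, 32.9, 52.5 and 48.0 CPM and Isg15 at 67.0, 5.75, 11.9 and 19.6 CPM. For none of Ccr2, Itgb7, Bst2 and Isg15 was the change called different from that in CD8 cells. Hspa1a, Hspa1b and Hsph1, heat shock genes that also respond to tissue dissociation, fell, 3 of 16 in their list. DESeq2 called 0 of the 16, and edgeR called 1 of 14 tested when thinned and 0 of 13 without other-lineage or very deep cells. Hspa1a was called in 8 of 11 alternatives, Hspa1b in 10 of 13 and Hsph1 in 7 of 14, and Hsph1 turned to 0.07 without other-lineage or very deep cells.

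Of 11 checkpoint genes 1 was called, and 9 had a positive log2 change, against 3638 of 6840 over all genes tested. The checkpoint median was 1.19. That median was 0.75 without other-lineage or very deep cells, where edgeR called 0 of 6 tested. The gene called was Cd200, a ligand of an inhibitory receptor, at 16.2 CPM against 48.1, 76.4 and 81.3 CPM (2.00 ± 0.56, edgeR adjusted p 0.035). Pdcd1 was at 122 CPM against 421, 314 and 314 CPM, with a change of 1.41 ± 0.52 that was not called (edgeR adjusted p 0.28). Tox, a factor of exhausted T cells, was at 72.8 CPM against 259, 235 and 272 CPM (1.70 ± 0.53, edgeR adjusted p 0.098). For both OE-Vector 1 was the lowest library, which with 1 library against 3 is no support for a change. In CD8 cells Pdcd1 was at 205, 399, 258 and 225 CPM across OE-Vector 1 and OE-MLKL 1, 2 and 3. Tox was at 172, 283, 169 and 287 CPM there. The follicular helper list had Cd200 and Tox2 called of 9, and a median of 0.94. Thinned, that median was 0.07, and 0 of these genes were called thinned, with DESeq2 or without other-lineage or very deep cells. Cd200 was called in 4 of 12 alternatives, with DESeq2, limma-voom and scaling by library size among those that lost the call, and Tox2 in 6 of 13.

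Each of 18 cell cycle genes had a negative change, against 3202 of 6840 over all genes tested. Genes of a list come from the same cells, so their directions are not independent. The cell cycle median was -1.07, and Pclaf (-1.77 ± 0.45) was called, in 6 of 14 alternatives. Leaving out cells with UMIs of other lineages or of very high depth brought that median to -0.12. Thinned it was -1.04, and with DESeq2 -1.07. Each of 14 glycolysis genes had a negative change, with a median of -0.90, and edgeR called 0. That median was -0.75 thinned, -0.89 with DESeq2 and -0.70 without other-lineage or very deep cells, with 0 called in each. Ccl5 was called higher (2.27 ± 0.60, edgeR adjusted p 0.02), at 166 CPM against 361, 1549 and 589 CPM and in 6 of 14 alternatives, and Ifng was not (-1.12 ± 0.46, edgeR adjusted p 0.44). In OE-Vector 1 57.7% of the Ifng UMIs were in 1 cell.

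**Figure D4:**
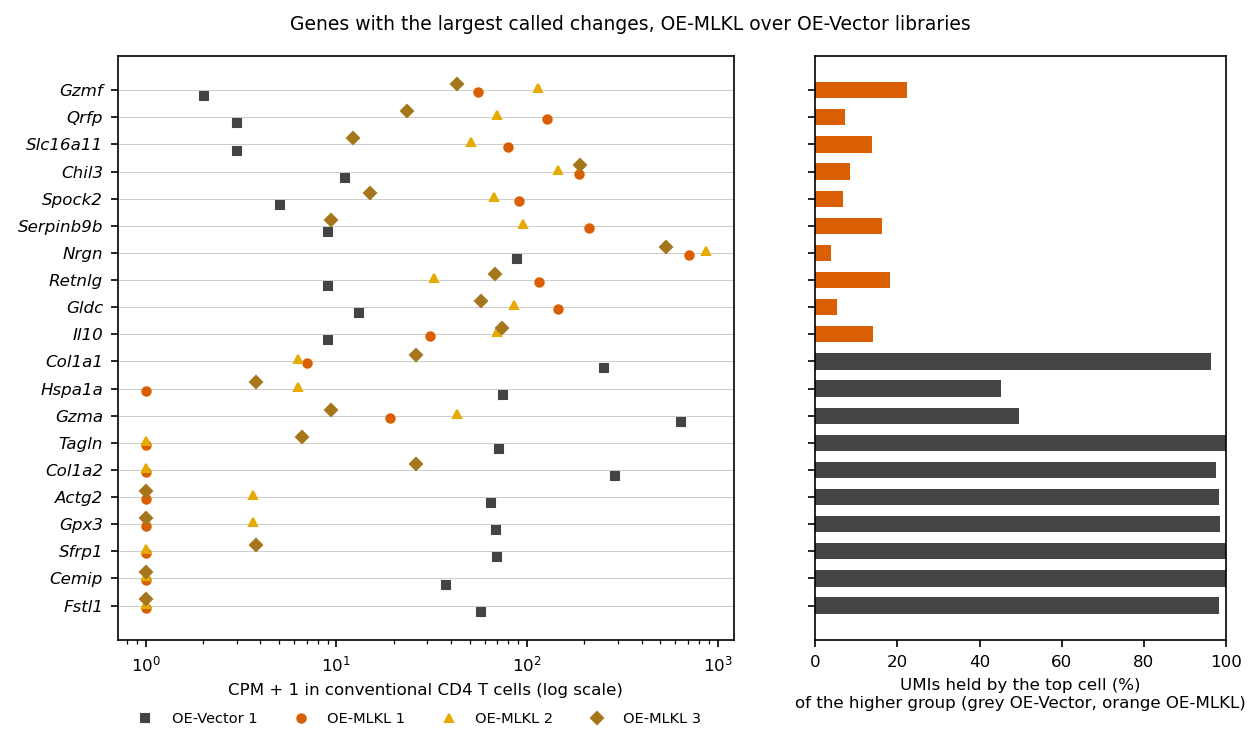
Left, level of each gene with a large called change (CPM + 1, log scale) in the members of each library. Right, percent of the UMIs of the higher group held by its top cell, which is over 90% for 8 of the 10 falls and 49.5% for Gzma.

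Whether these changes differed from those of the CD8 T cells of the same tumours was tested with an edgeR interaction of group and cell type, added after the data were seen. The difference, the change in members less the change in CD8 cells, was called in 66 of 8907 genes tested, which is 0.741%. It was higher in 17 genes, which is 0.191%, and lower in 49, which is 0.55%. Under scaling by library size alone the split was 25 higher and 40 lower. Without OE-MLKL 1 edgeR called 15 genes and without OE-MLKL 2 203. Of the 18 cell cycle genes 6 were lower, namely Pclaf (-1.61 ± 0.26), Top2a, Mki67, Stmn1, Tuba1b and Hmgb2, and the median was -1.07 against 0.0 over the genes tested. Summed, the cell cycle list was at 7084 CPM in the members of OE-Vector 1 and 3892, 5533 and 3254 CPM in those of OE-MLKL 1, 2 and 3, and in CD8 cells at 6261, 6950, 7197 and 5649 CPM. In members OE-Vector 1 was the highest, and in CD8 cells it lay within the range of the others. With cells that held other-lineage UMIs or were of very high depth left out edgeR called 0 cell cycle genes of this contrast. The list median was then -0.30, while it was -1.12 thinned and -1.08 with DESeq2.

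Ccl5 differed by 3.63 ± 0.49 (edgeR adjusted p 0.00054), as it was at 9015 CPM in the CD8 cells of OE-Vector 1 and at 2040, 2841 and 4846 CPM in those of the OE-MLKL libraries. The summed gamma delta and NKT list moved with it in CD8 cells, at 910 CPM in OE-Vector 1 and 293, 351 and 520 CPM in OE-MLKL 1, 2 and 3, and its part in the result was not tested. The costimulator Cd27 differed by 1.92 ± 0.30, with 42.5 CPM in the members of OE-Vector 1 and 126 to 160 CPM in the others, and 133 to 175 CPM in CD8 cells. Nkg7 differed by 1.17 ± 0.22, Tox by 1.24 ± 0.29 and the pro-apoptotic gene Bcl2l11 by 1.4 ± 0.26. Tox was called in 7 of 14 alternatives and Cd27 in 13 of 14. Of 12 checkpoint genes 11 had a positive difference, against 4434 of 8907 over all genes tested. The checkpoint median was 1.09, and Tox was the 1 called. Without other-lineage or very deep cells the median was 0.51 and edgeR called 0 of 10 tested, and 0 of 8 were called thinned or with DESeq2.

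**Figure D5:**
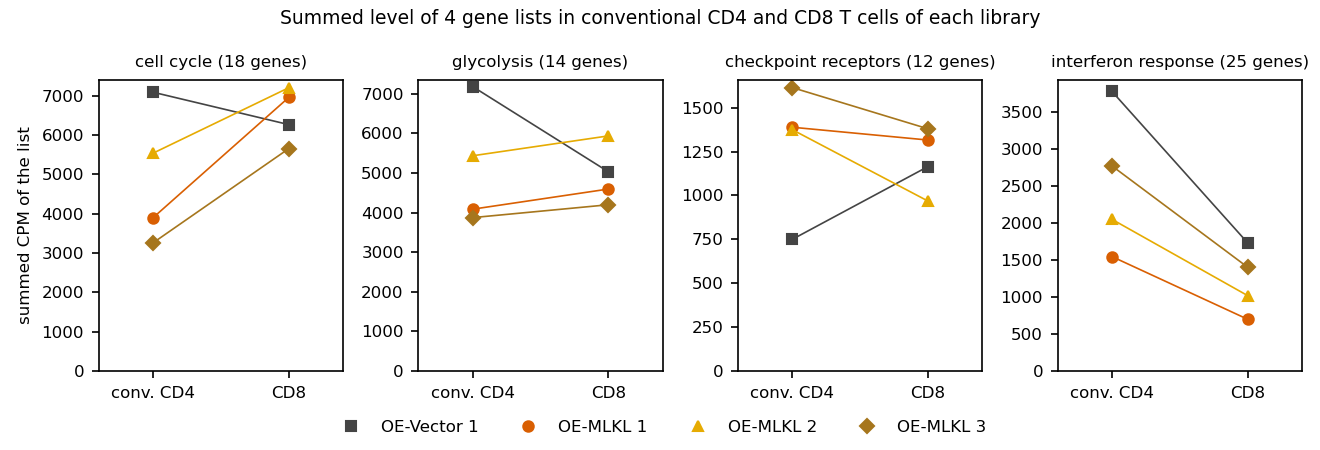
Summed level (CPM) of 4 gene lists in conventional CD4 and CD8 T cells, 1 line per library. The cell cycle list is at 7084 CPM in the members of OE-Vector 1 and 3254 to 5533 CPM in those of the OE-MLKL libraries, while the 4 CD8 values lie at 5649 to 7197 CPM.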

How the data were processed

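Single cells of orthotopic tumours were sequenced from the 3' end of transcripts in droplets. The deposited values are unnormalised UMI counts of 32285 genes in every barcode, as the authors' pipeline gave them. The submitters' processing notes name Cell Ranger 2.1.1 and the mm10 build. The file headers carry another software version, and whether introns were counted is not given in the sources used here. Groups follow the labels. The matrices of OE-Vector 2 and 3 were not analysed here. The members and the 29 gene lists were chosen with earlier results of these data known.

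Cells were selected by the rule given above, with no doublet caller beyond its exclusions. Counts were summed per library and cell type and tested with edgeR 4.0.16 (TMM, filterByExpr, quasi-likelihood, Benjamini-Hochberg at 0.05) in R 4.3.3. DESeq2 1.42.0, limma-voom (limma 3.58.1), other filters and other cell selections were alternatives. Shares were compared by exact two-sided permutation (scipy 1.17.1), with exact binomial intervals, and intervals cover counting error only. UMI levels were compared between samples and not between genes. Named genes were the 10 largest called rises and falls with the same direction in each library and at least 20 CPM in the higher group, plus list members, the genes of the rule, Mlkl and a set of helper markers. Where fewer were called, the smallest unadjusted p-values were taken. Genes of the rule got no test. The test of the difference from CD8 cells and 2 cell selections (each cell thinned before summing, and cells with 3 or more stromal UMIs left out) were added after the data were seen. The study's text gives 3 mice per group, and the labels tie no library to an animal. Each test was tried on simulated counts with 200 changed genes. Gene positions are from GENCODE vM21. Trbc1 and Trbc2 are near-identical copies whose reads may be split. Some results that rest on certain genes are not reported here, among them a comparison of member states.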

Additional observations from a re-analysis of the deposited data

Results flagged for a closer look

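The change from OE-Vector to OE-MLKL differed between conventional CD4 and CD8 T cells in 66 of 8907 genes tested, which is 0.741%. The test was the edgeR interaction at an adjusted p of at most 0.05. Given here are only the 25 of these genes that were listed or named, 24 in the gene lists and Nrgn outside them. Values are the log2 change in conventional CD4 cells less that in CD8 cells. Cell cycle genes were lower, at -1.61 for Pclaf, -1.37 for Top2a, -1.15 for Mki67, -1.13 for Stmn1, -1.09 for Tuba1b and -1.06 for Hmgb2. Without other-lineage or very deep cells 0 cell cycle genes were called by edgeR, and the median of the list went from -1.07 to -0.30. Thinned that median was -1.12, and with DESeq2 -1.08. The glycolysis genes Pgk1 (-1.33) and Aldoa (-0.90) were lower too. Among effector and receptor genes the difference was 3.63 for Ccl5, 1.92 for Cd27, 1.4 for Bcl2l11, 1.24 for Tox, 1.18 for Nrgn and 1.17 for Nkg7, and -2.49 for Gzma, -1.63 for Rora and -1.05 for Lgals1. The Gzma difference was 0.02 without other-lineage or very deep cells. Tyrobp (1.72) and Fcer1g (1.53), adaptors shared with NK and myeloid cells, were higher. In CD8 cells Fcer1g was at 594 CPM in OE-Vector 1 and 46.0, 127 and 284 CPM in OE-MLKL 1, 2 and 3, and Tyrobp at 493, 65.8, 126 and 320 CPM. The gamma delta gene Trdc moved with them there, at 145, 8.36, 15.4 and 89.6 CPM, and its part in the result was not tested. Tyrobp was called in 14 of 14 alternatives and Fcer1g in 9 of 14. The pancreatic acinar gene Ctrb1, a digestive enzyme precursor, was higher at 7.08. It was at 483 CPM in the CD8 cells of OE-Vector 1 and at 23.0, 14.7 and 0 CPM in those of OE-MLKL 1, 2 and 3, and at 2.80 to 26.4 CPM in the members. The summed acinar list was at 1390 CPM in the CD8 cells of OE-Vector 1 and 34.4 to 95.1 CPM in the others, and its part in the result was not tested. Ctrb1 was called in 12 of 12 alternatives, and did not pass the filter on low counts when thinned or without other-lineage or very deep cells. The immunoglobulin gene Igkc (-2.66) was lower. It was at 394 CPM in the CD8 cells of OE-MLKL 3 and at 32.2 to 56.3 CPM in those of the other libraries, and the difference was -0.73 and not called without OE-MLKL 3 (edgeR adjusted p 0.75). Igkc was called in 9 of 14 alternatives. The stromal genes Col1a1 (-5.33), Col1a2 (-5.45), Col3a1 (-3.15) and Sparc (-2.68) were lower. In OE-Vector 1 the top member for each gene held 96.4% of the Col1a1 UMIs, 97.5% of those of Col1a2, 95.5% of those of Col3a1 and 79.0% of those of Sparc. Col3a1 turned to 0.35 without cells of 3 or more stromal UMIs, a selection that counted Col3a1 itself.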

How the results depend on the processing

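No paired analysis was possible because 1 OE-Vector library was analysed here, so that the groups compared share only 1 replicate number, and no label ties the numbers to shared animals. For OE-MLKL against OE-Vector, 71 genes were called, and 5 with DESeq2, 39 with scaling by library size, 12 with limma-voom, 14 with a mean of at least 20 UMIs, 14 with other-lineage or very deep cells left out and 33 to 223 with an OE-MLKL library left out. Alternatives added after the data were seen gave 6 with each cell thinned before summing and 41 without cells of 3 or more stromal UMIs. Against regulatory cells, 204 genes became 104 with DESeq2, 117 with at least 2 Cd4 UMIs, 49 without other-lineage or very deep cells, 54 thinned, 70 with no library block and 83 to 238 with a library left out. Against CD8 cells, 656 became 365 with DESeq2, 1020 with no filter, 291 without other-lineage or very deep cells, 217 thinned, 91 with no library block and 241 to 848 with a library left out. For the difference between conventional CD4 and CD8 cells, 66 became 19 with DESeq2, 130 with limma-voom, 183 with no filter, 102 with a mean of at least 20 UMIs, 140 with at least 2 Cd4 UMIs, 8 without other-lineage or very deep cells, 28 thinned and 15 to 203 with a library left out. The share among T cells turned to 1.19 points when thinned. Values that changed sign were Hsph1 (0.07) and Ifng (0.19) without other-lineage or very deep cells and Ifng (0.20) thinned, for OE-MLKL against OE-Vector; Tcf7 against CD8 cells (-0.07) with at least 2 Cd4 UMIs; and, for the difference from CD8 cells, Gzma (0.02) without other-lineage or very deep cells and Col3a1 (0.35) without stromal cells. The selection without stromal cells counted Col3a1 itself. The causes were not tested. Of the values for single genes, 1525 kept direction and call, 272 lost the call, 8 gained it and 6 turned. Fewer cells and UMIs enter the thinned and stricter analyses, and the 58 members of OE-MLKL 1 set the lowest depth.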

Other observations

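Receptor segments were seen in few members. A beta variable (Trbv) UMI was found in 15 members of OE-Vector 1 and in 3, 5 and 14 members of OE-MLKL 1, 2 and 3, spread over 10, 3, 3 and 9 genes. No beta gene was found in more than 3 members of a library. An alpha variable (Trav) UMI was found in 33, 5, 22 and 20 members, over 18, 5, 13 and 10 genes. Mapping between these related segments is uncertain.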
